A study of Mus musculus with 48 samples.

Results

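The genes described here are 6 members of the CD47 and SIRP alpha axis. They are Cd47, Sirpa, Qpct, Thbs1, Calr and Lrp1, taken by gene symbol from a table of 55486 genes. The table counts reads in 48 mouse RNA libraries of a study on QPCTL deficiency. By the labels, 12 libraries are live CD45-negative cells sorted from B16F10 melanomas 14 days after inoculation, 6 from QPCTL-KO mice carrying QPCTL-KO tumour cells and 6 from wild-type littermates carrying QPCTL-proficient tumour cells. Whole bone marrow and whole spleen have 8 libraries each, 4 per genotype, from uninoculated C57/Bl6JR animals aged 10 to 15 weeks. Lymph nodes have 20 libraries, of which 8 are baseline nodes (4 per genotype, same ages) and 12 come from tumour-bearing mice at day 14 (6 per genotype). The columns of the count table carry an organ and a running number only. They separate tumour cells, bone marrow, spleen and lymph node, but neither the genotypes nor the baseline and tumour-bearing nodes. Each organ group below therefore holds both genotypes in equal number by the labels, and the lymph node group holds both kinds of node. In the tumour libraries host and tumour genotype always changed together. Nothing in the labels says that animals were pooled, and B16F10 is a transplanted melanoma line, so the tumour libraries describe that line with the stroma the sort kept.

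CD47 is a membrane protein found on nearly all cells, and its binding to SIRP alpha (Sirpa) on macrophages, dendritic cells and neutrophils restrains phagocytosis, the so-called don't-eat-me signal. The binding site on CD47 begins with a glutamine that is cyclised to pyroglutamate. This step is carried out by QPCTL, the glutaminyl cyclase of the Golgi, while Qpct encodes the secreted glutaminyl cyclase. Thrombospondin 1 (Thbs1) is a secreted ligand of CD47. Calreticulin (Calr) is a chaperone of the endoplasmic reticulum that acts as an eat-me signal when exposed on the cell surface, and LRP1 (Lrp1) is the endocytic receptor through which phagocytes recognise it.

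A stretch of coding sequence is shown first because it holds the residue the enzymes act on. It covers the first 90 coding bases of a Cd47 transcript of 324 codons, read from GRCm38 with GENCODE M21, on the plus strand of chromosome 16 between 49855787 and 49867808. Exon 1 ends at 49855832 and the rest lies in exon 2. The capitals mark the first glutamine codon, which is codon 19 and follows the signal peptide.
Cd47: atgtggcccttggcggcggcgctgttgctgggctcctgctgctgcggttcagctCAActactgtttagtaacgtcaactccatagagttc

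The depth of the table limits every value that follows. The libraries hold between 54117 and 637985 counts, with a median of 302135, while the labels' protocols speak of 18 M sequenced reads for the average sample. The shallowest library is tumour library 4. The kit named in the labels keeps the strand of the RNA, and the strand setting of the counting is not given in the sources used here. Of 55226 genes with a known strand, the 16.5% whose exons share bases with an exon on the opposite strand held between 70.1% and 89.5% of the counts of a library. The mitochondrial gene mt-Nd6, which lies on the strand opposite to mt-Co1, exceeded mt-Co1 in 48 of 48 libraries, by 6.78-fold to 51.6-fold. Actb, a gene of high level in most cells, had 27 to 1390 counts. The levels given here are therefore deposited counts relative to library size (CPM), scaled between libraries with the trimmed mean of M values, and their relation to transcript level on the annotated strand was not tested. In the tumour libraries the summed level of 7 melanoma markers was 1950 to 5650 CPM, and that of 6 leukocyte markers was 0 to 23 CPM, with Ptprc (the gene of CD45), Laptm5, Cd52 and Cd53 at 0 in all 12. The leukocyte markers summed to 1090 to 2070 CPM in bone marrow, 361 to 2080 CPM in spleen and 301 to 1380 CPM in lymph node. Tyrp1, a pigment gene, was counted in lymph node libraries 17 and 18 (13 and 89 counts) and in no other node. The 7 melanoma markers together summed to 160 to 722 CPM in lymph node (median 313 CPM), highest in library 18. Library 17, at 316.6 CPM, did not stand out by this sum. The same sum was 26.9 to 321 CPM in spleen and 34.2 to 90.3 CPM in bone marrow. Spleen libraries 5, 6 and 8 stood apart from the other spleens, with median Spearman correlations to the spleen group of 0.791, 0.664 and 0.752, against 0.887 to 0.894 in the other 5. The lymph nodes left a gap in the leukocyte sum, with 8 libraries at 301 to 644 CPM, 12 at 880 to 1380 CPM and none between. The 8 are lymph node libraries 1 to 8 and the 12 are libraries 9 to 20, in separate runs of columns. The labels hold 8 baseline and 12 tumour-bearing nodes. The columns give no condition for either set, and whether the sets are those conditions was not tested. Calr ran from 124 to 294 CPM in the 8 and from 261 to 474 CPM in the 12, and Cd47 from 8.79 to 29.3 CPM in the 8 and from 20.2 to 73.9 CPM in the 12. The members' comparisons with spleen and lymph node are also given without these libraries, where leaving them out changed a call or moved a called value, and the part of leukocyte content in the node values was not tested.

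**Figure D1:**
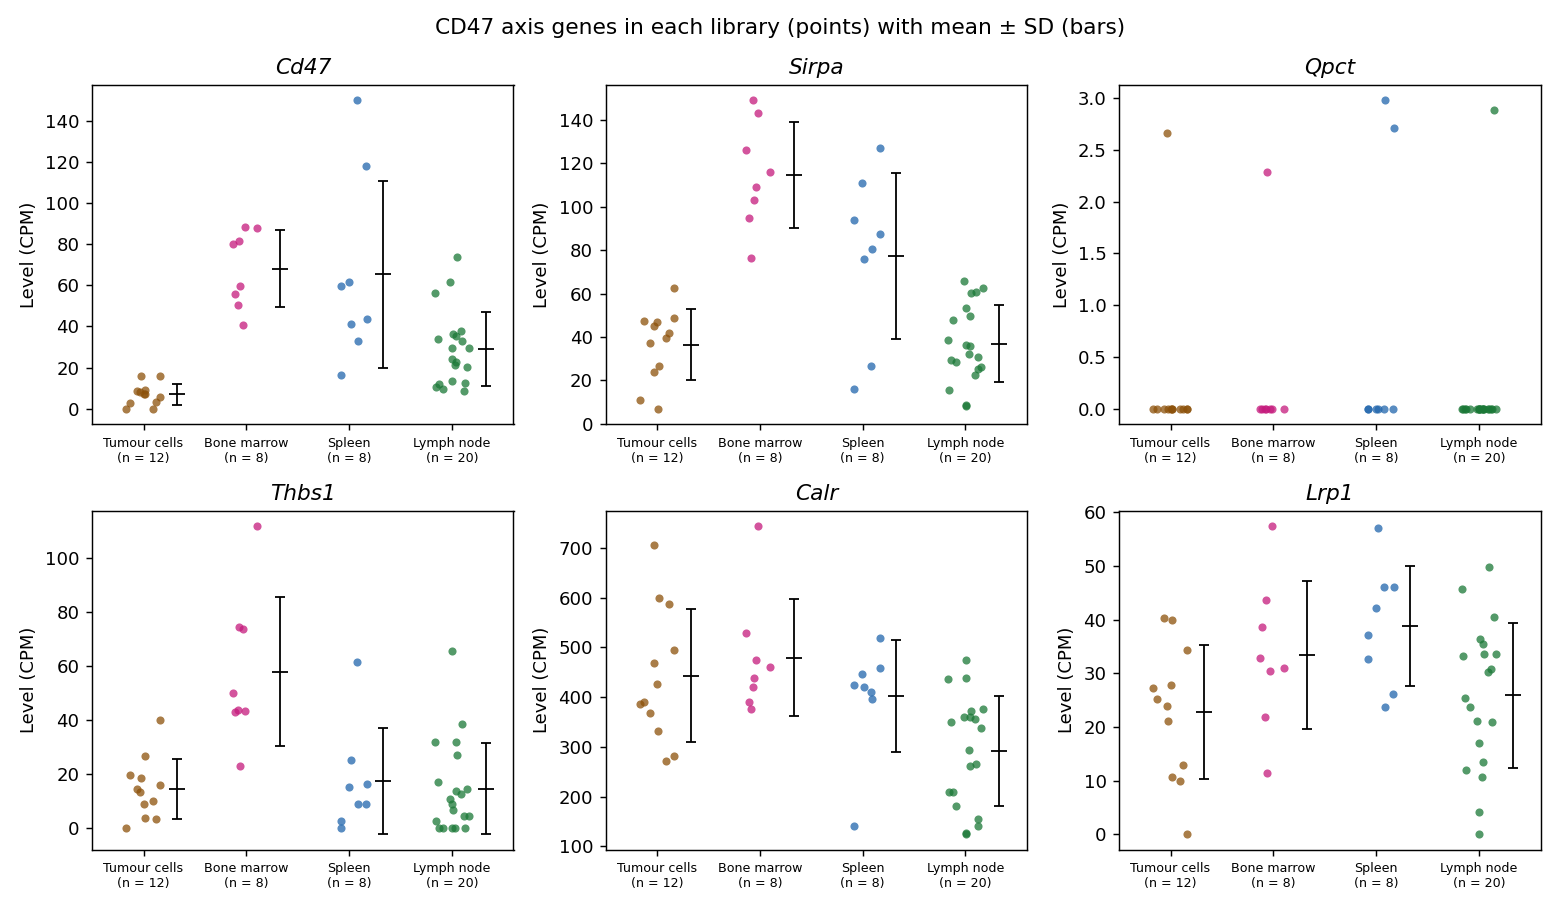
Level of each gene in CPM (vertical axes) in every library (points), by organ group, with mean ± SD as bars except for Qpct. Cd47 in tumour cells lies below every bone marrow and spleen library, and Qpct is at 0 in 43 of 48 libraries.

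Cd47, the ligand, was lowest in the tumour cells and highest in bone marrow and spleen. The gene lies on chromosome 16 from 49800533 to 49915010, plus strand (ENSMUSG00000055447). Its level ran from 0 through a median of 7.01 to 15.8 CPM in tumour cells, and 2 of the 12 tumour libraries had no count. In bone marrow the lowest, median and highest levels were 40.6, 69.9 and 88.5 CPM. In spleen they were 16.3, 51.4 and 150.0 CPM, and in lymph node 8.79, 26.8 and 73.9 CPM. Every tumour library lay below every bone marrow and spleen library, and 9 of 12 lay below every lymph node library. How many of all genes separate the groups in this way was not counted, here or for the genes below. Of all tested genes, 68.1% were called in tumour cells against bone marrow, 67.5% against spleen and 73.3% against lymph node. The evidence in the tumour cells is 25 counts over 12 libraries, against 273 in bone marrow, 174 in spleen and 179 in lymph node. Of the 6276 exonic bases of Cd47, 0 are shared with an opposite-strand exon, and the strand its counts come from was not tested.

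Tested with edgeR's quasi-likelihood test over all 48 libraries, Cd47 fell by 3.27 on the log2 scale (SE 0.37, adjusted p = 2.45e-11) in tumour cells against bone marrow. Against spleen the fall was -3.18 (SE 0.39, adjusted p = 1.7e-10), and against lymph node -2.10 (SE 0.37, adjusted p = 1.09e-06). These are 9.67-fold, 9.09-fold and 4.28-fold lower levels in tumour cells. The value against lymph node depended on which nodes were kept, by the split chosen after the data were seen. It was -2.47 (adjusted p = 2.26e-08) against the 12 nodes of higher leukocyte sum alone, and -0.92 (adjusted p = 0.0828, above the threshold of 0.05) against the 8 of lower sum alone. In bone marrow Cd47 was 2.26-fold higher than in lymph node (log2 fold change 1.18, SE 0.27, adjusted p = 0.000127), with 0.80 over the 12 nodes and 2.43 over the 8 (adjusted p = 0.00716 and 3.02e-07). Bone marrow and spleen did not differ beyond their spread, with a log2 fold change of 0.09 and a 95% interval of -0.52 to 0.70, and 0.58 (adjusted p = 0.145) without the 3 spleens that stood apart. In bulk samples fewer cells of a type and less RNA per cell cannot be told apart, here and for each gene below.

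The spleen's Cd47 level depended on few libraries. Spleen over lymph node gave 1.09 (SE 0.28, adjusted p = 0.00143), and without spleen libraries 5, 6 and 8 it gave 0.65 with an adjusted p of 0.0739. Over the 12 nodes alone it was 0.70 (adjusted p = 0.0392), and over the 8 alone 2.33 (adjusted p = 2.98e-06). Cd47 stood at 118 and 150.0 CPM in spleen libraries 5 and 6, and at no more than 61.7 CPM in the other 6. The same libraries led the erythroid markers, which sum 7 genes of red cell precursors. Their sum was 4428 CPM in spleen library 5 and 5393 CPM in spleen library 6, against 136 to 1036 CPM in the other 6 spleens. In bone marrow the erythroid sum was 73.6 to 278 CPM, in tumour cells 0 to 15.8 CPM with Hba-a1, Hbb-bs and Slc4a1 at 0 throughout, and in lymph node 3.52 to 67.0 CPM. Spleen libraries 5 and 6 also had the highest neutrophil sums of the spleens, 708 and 1725 CPM, against 32.6 to 518 CPM in the other 6. The part of erythroid cells or neutrophils in the Cd47 level was not tested. Red cells are a textbook setting of CD47, which protects them from clearance by splenic macrophages.

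**Figure D2:**
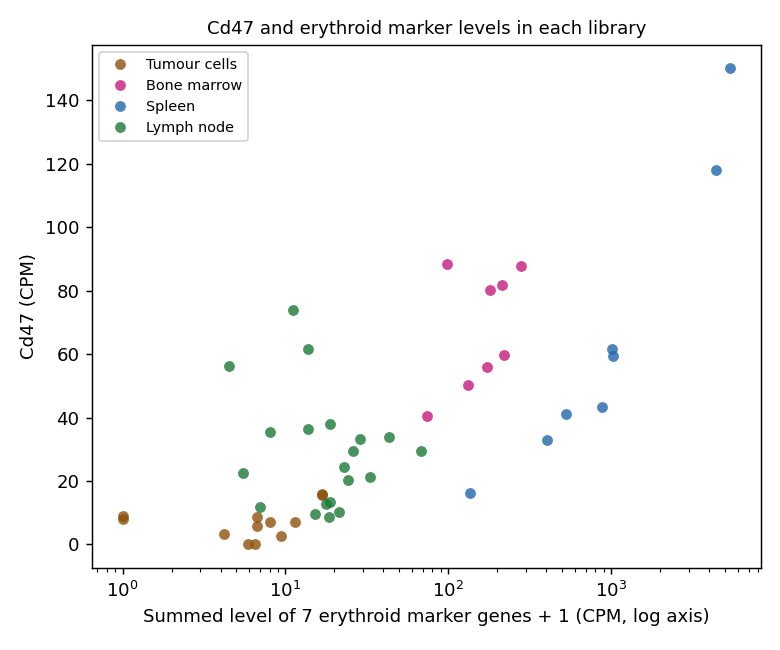
Cd47 in CPM (vertical axis) against the summed level of 7 erythroid marker genes plus 1 in CPM (horizontal log axis), 1 point per library, coloured by organ group. Spleen libraries 5 and 6 lie at the upper right, with 118 and 150.0 CPM of Cd47.

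Sirpa, the receptor, was highest in bone marrow and spleen, and tumour cells did not differ beyond their spread from the 20 lymph nodes. It lies on chromosome 2 from 129592835 to 129632228, plus strand (ENSMUSG00000037902). In tumour cells its lowest, median and highest levels were 7.05, 40.6 and 62.6 CPM. They were 76.6, 113 and 149 CPM in bone marrow, 16.3, 83.9 and 127 CPM in spleen, and 8.38, 34 and 65.8 CPM in lymph node. All 8 bone marrow libraries lay above all tumour and all lymph node libraries, and 6 of 8 spleens lay above all nodes. The 2 spleens that did not were libraries 6 and 8, at 26.9 and 16.3 CPM.

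Sirpa was 3.18-fold lower in tumour cells than in bone marrow (log2 fold change -1.67, SE 0.27, adjusted p = 3.37e-07 by edgeR) and 2.21-fold lower than in spleen (-1.14, SE 0.28, adjusted p = 0.00038). Tumour cells over lymph node gave -0.04, with a 95% interval of -0.54 to 0.45. Over the 12 nodes of higher leukocyte sum alone this was -0.32 (adjusted p = 0.256), and over the 8 of lower sum alone 0.74 (adjusted p = 0.0494). Bone marrow was 3.08-fold above lymph node (1.62, SE 0.24, adjusted p = 3.61e-08), and spleen was 2.14-fold above it (1.10, SE 0.25, adjusted p = 0.000375). Over the 12 nodes alone bone marrow gave 1.34 and spleen 0.83, and over the 8 alone 2.49 and 1.93, with adjusted p-values of at most 0.00807. Without the 3 spleen libraries that stood apart, spleen over all nodes was 1.37 (adjusted p = 2.06e-05). Bone marrow over spleen gave 0.52, with a 95% interval of -0.03 to 1.07, and 0.30 without those 3 (adjusted p = 0.43). Neutrophil markers, 9 genes of granulocytes and their precursors, summed to 14300 to 31900 CPM in bone marrow, against 32.6 to 1720 CPM in spleen and 0 to 26.4 CPM in lymph node. The part of neutrophils in the Sirpa level of bone marrow was not tested. In the tumour cells, Sirpa was counted in all 12 libraries while Ptprc was at 0 in each. There 8 of the 9 neutrophil markers were at 0, as were Adgre1, C1qb, C1qc, Cd163, Mrc1 and Spic of the 10 macrophage markers, whose other members summed to 313 to 614 CPM.

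The 3 other SIRP family genes of the list, Sirpb1a, Sirpb1b and Sirpb1c, did not pass the filter on low counts. They had no count in tumour cells. In bone marrow they had 8, 8 and 5 counts over 8 libraries, in spleen 4, 1 and 3 counts, and in lymph node 0, 2 and 0 counts over 20 libraries. These genes resemble one another and Sirpa in sequence, so the split of reads among them is uncertain.

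Receptor and ligand were also set against each other within each library, as the log2 ratio of Sirpa to Cd47 counts after 0.5 counts were added to each. The mean ratio was 2.19 ± 1.19 in tumour cells (SD, n = 12), 0.76 ± 0.29 in bone marrow (n = 8), 0.29 ± 1.26 in spleen (n = 8) and 0.37 ± 0.82 in lymph node (n = 20). Of the tumour libraries 11 of 12 held more Sirpa than Cd47 counts, as did 8 of 8 bone marrows, 5 of 8 spleens and 14 of 20 nodes. The ratio was higher in tumour cells than in lymph node by 1.82 (two-sided permutation test of 100000 resamples, p = 6e-05, adjusted over 6 comparisons p = 0.00036). It was higher than in spleen by 1.90 (exact two-sided permutation test, p = 0.0027, adjusted p = 0.0065) and than in bone marrow by 1.43 (exact test, p = 0.0032, adjusted p = 0.0065). With 5 counts added in place of 0.5, the difference from lymph node was 0.87 (permutation, adjusted p = 0.00108), while those from spleen (0.82, exact adjusted p = 0.0795) and bone marrow (0.41, exact adjusted p = 0.151) no longer passed. Without the 3 spleens that stood apart, the difference from spleen was 1.17 (exact adjusted p = 0.095). The 3 comparisons among bone marrow, spleen and lymph node had adjusted permutation p-values of 0.3 to 0.82. Against the 12 nodes of higher leukocyte sum alone the ratio in tumour cells was higher by 1.959 (permutation, adjusted p = 0.00036), and against the 8 of lower sum alone by 1.62 (exact, adjusted p = 0.0147).

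**Figure D3:**
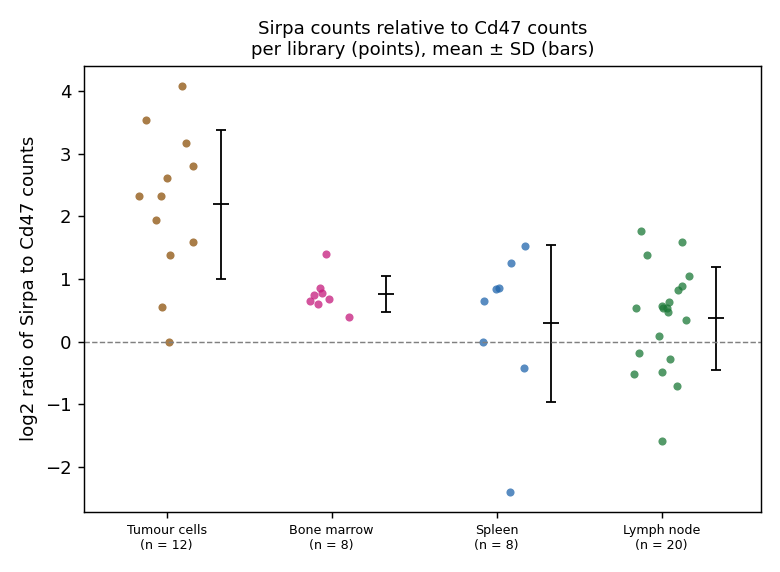
The log2 ratio of Sirpa to Cd47 counts (vertical axis, 0.5 counts added to each) per library (points) by organ group, with mean ± SD as bars. Tumour cells averaged 2.19 and the other groups 0.29 to 0.76.

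Qpct had almost no counts. Its locus is chromosome 17 from 79051906 to 79090378, plus strand (ENSMUSG00000024084). It had 5 counts in 48 libraries, 1 each in tumour library 8, bone marrow library 1, spleen libraries 1 and 4, and lymph node library 16. Pooled over a group this is 0.274 CPM in tumour cells (exact 95% Poisson interval 0.00693 to 1.52), 0.261 CPM in bone marrow (0.0066 to 1.45), 0.724 CPM in spleen (0.0877 to 2.62) and 0.175 CPM in lymph node (0.00442 to 0.974). The intervals overlap and cover counting error only. Qpct did not pass the filter on low counts, so no difference between organs was detectable at these counts. It has no place in the counts of members called below. Of its 2539 exonic bases 0 are shared with an opposite-strand exon, and its transcript level on the annotated strand was not tested.

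Qpctl, the deleted gene and the Golgi counterpart of Qpct, was counted in all 48 libraries, with 301 counts in total. It lies on chromosome 7 from 19139702 to 19149291, minus strand (ENSMUSG00000030407), and 471 of its 4310 exonic bases are shared with Fbxo46 on the plus strand. It averaged 13.4 ± 7.10 CPM in tumour cells (SD, n = 12), 19.2 ± 6.06 CPM in bone marrow (n = 8), 27.7 ± 15.0 CPM in spleen (n = 8) and 18.5 ± 8.62 CPM in lymph node (n = 20). By the labels each group holds as many knockout as wild-type samples, and the columns do not say which is which. Since all 48 libraries had Qpctl counts, knockout libraries carry them too. Whether these counts stem from Qpctl transcripts was not tested. Qpctl did not pass the filter on low counts either, and the groups overlap. Fitted without that filter, Qpctl fell in tumour cells against spleen (-1.22, SE 0.33, adjusted p = 0.00215 by edgeR), while tumour cells over lymph node (-0.62, adjusted p = 0.0903) and over bone marrow (-0.80, adjusted p = 0.0552) did not pass.

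Thbs1, the secreted ligand, was highest in bone marrow by its median. It lies on chromosome 2 from 118111876 to 118127133, plus strand (ENSMUSG00000040152). In tumour cells its lowest, median and highest levels were 0, 13.8 and 40.1 CPM. In bone marrow they were 22.9, 46.9 and 112 CPM, in spleen 0, 12 and 61.5 CPM, and in lymph node 0, 9.73 and 65.6 CPM. All 8 bone marrow libraries lay above the median of each other group, but the ranges overlapped. Thbs1 was 3.85-fold lower in tumour cells than in bone marrow (log2 fold change -1.95, SE 0.46, adjusted p = 0.000171 by edgeR). Bone marrow was 3.35-fold above spleen (1.74, SE 0.50, adjusted p = 0.00369) and 3.71-fold above lymph node (1.89, SE 0.39, adjusted p = 3.75e-05). Tumour cells over lymph node gave -0.06, with a 95% interval of -0.95 to 0.84. The nodes differed among themselves, with 4.19 to 65.6 CPM in the 12 of higher leukocyte sum and 0 to 8.85 CPM in the 8 of lower sum. Over the 12 alone, tumour cells gave -0.61 (adjusted p = 0.199), and over the 8 alone 2.71 (adjusted p = 0.00156). Bone marrow gave 1.33 over the 12 (adjusted p = 0.00168) and 4.73 over the 8 (adjusted p = 1.73e-08), and spleen gave -0.41 over the 12 (adjusted p = 0.512) and 2.96 over the 8 (adjusted p = 0.00122). Megakaryocyte and platelet markers are 5 genes of cells that store thrombospondin 1. They summed to 37.3 to 109 CPM in bone marrow, 52.5 to 150 CPM in spleen and 42.2 to 167 CPM in lymph node. In tumour cells the 5 markers summed to 12.9 to 39.5 CPM, with Pf4 and Ppbp at 0 throughout.

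An annotated gene on the other strand shares exons with Thbs1. Gm29233 (ENSMUSG00000101859) is a lincRNA on the minus strand of chromosome 2 from 118123451 to 118124047 with 281 exonic bases. Of these, 208 are shared with exons of Thbs1, and 187 of the shared bases are Thbs1 coding sequence. The longest shared block is 98 bases, all of them coding, of exon 20 of a Thbs1 transcript, on the plus strand of chromosome 2 from 118123916 to 118124013 (GRCm38). It is shown because reads from either gene can cover it. Capitals are not used in it.
Thbs1: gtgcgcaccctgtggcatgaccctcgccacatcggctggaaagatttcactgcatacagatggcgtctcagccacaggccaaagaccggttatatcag

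Gm29233 had more counts than Thbs1 in 47 of 48 libraries. It had 1476 counts in all against 410 for Thbs1, which is 5250 counts per kb of exon against 67.5, a ratio of 77.8. In tumour cells Gm29233 ran from 12.9 to 152 CPM, in bone marrow from 60.5 to 351 CPM, in spleen from 27.2 to 181 CPM and in lymph node from 23.3 to 331 CPM. It was lower in tumour cells than in bone marrow (-1.51, SE 0.42, adjusted p = 0.00121) and higher in bone marrow than in spleen (1.5, SE 0.47, adjusted p = 0.00795) and in lymph node (0.97, SE 0.36, adjusted p = 0.0169 by edgeR). With scaling on genes without opposite-strand exons the value against lymph node was 0.59 (adjusted p = 0.169), and without bone marrow library 2 it was 0.82 (adjusted p = 0.0589). Over the 12 nodes of higher leukocyte sum alone it was 0.70 (adjusted p = 0.128), and over the 8 of lower sum alone 1.69 (adjusted p = 0.000261). Without the 3 spleens that stood apart, Gm29233 in bone marrow over spleen was 2.09 (adjusted p = 0.0013). Across 48 libraries the log2 levels of the pair had a Pearson r of 0.68, and of 0.61 after the group means were subtracted. Differences between the sets of nodes split by leukocyte sum, and of the spleens that stood apart, remain in the second value. The pair shares bases and libraries, so its members are not independent measures. Whether the Gm29233 counts stem from Thbs1 transcripts was not tested. In tumour cells and lymph node the libraries highest in Gm29233 were also the highest in fibroblast markers. In tumour cells, libraries 2 and 9 had 152 and 142 CPM of Gm29233 and fibroblast sums of 1202 and 1869 CPM, where the median of the group was 71.4 CPM. Lymph node library 14 had 331 CPM and a fibroblast sum of 1286 CPM. In bone marrow, where Gm29233 was highest, the fibroblast sum was 0 to 2.37 CPM.

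**Figure D4:**
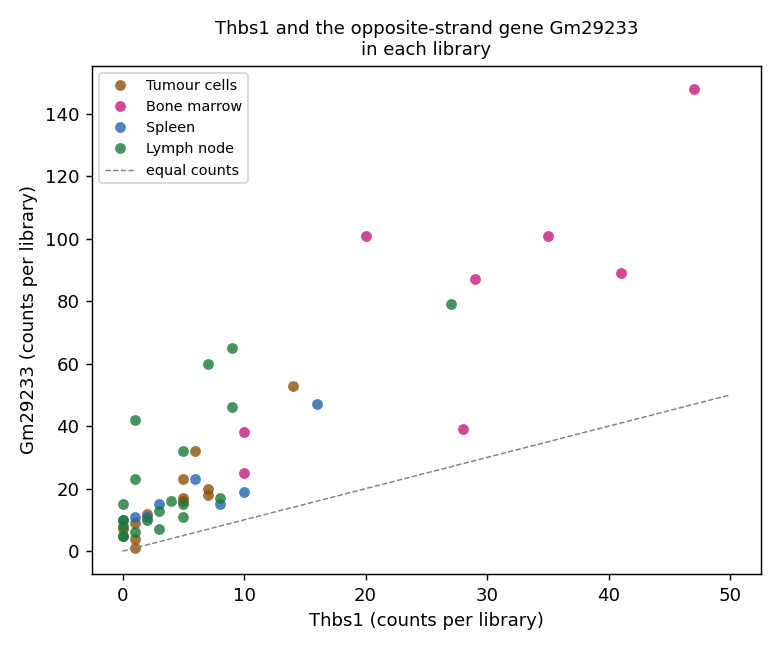
Counts of the opposite-strand gene Gm29233 (vertical axis) against counts of Thbs1 (horizontal axis), 1 point per library, coloured by organ group, with a dashed line of equal counts. In 47 of 48 libraries Gm29233 lies above the line.

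Calr, the eat-me ligand, had the most counts of the members, 6543 in all, and differed by less than 2-fold between organ means. It lies on chromosome 8 from 84841850 to 84846934, minus strand (ENSMUSG00000003814). In tumour cells its lowest, median and highest levels were 272, 409 and 706 CPM. They were 376, 449 and 744 CPM in bone marrow, 141, 422 and 518 CPM in spleen and 124, 316 and 474 CPM in lymph node. The groups overlap throughout, with 4 of 12 tumour libraries and 3 of 8 bone marrows above all nodes. Calr was 1.52-fold higher in tumour cells than in lymph node (log2 fold change 0.61, SE 0.17, adjusted p = 0.00164 by edgeR). In bone marrow it was 1.63-fold higher than in lymph node (0.71, SE 0.19, adjusted p = 0.00121). With scaling on genes without opposite-strand exons this value was 0.35 (adjusted p = 0.0627). Neither call held against the 12 nodes of higher leukocyte sum alone, where tumour cells gave 0.28 (adjusted p = 0.0983) and bone marrow 0.37 (adjusted p = 0.0527). Against the 8 of lower sum alone the values were 1.43 (adjusted p = 9.63e-08) and 1.62 (adjusted p = 3.44e-08). Spleen over lymph node gave 0.46 (SE 0.20, adjusted p = 0.0536). This value passed in 16 of 28 edgeR fits that left out 1 library, with an adjusted p of up to 0.0935 among the 28. It passed the threshold with DESeq2 (0.52, adjusted p = 0.0379), without the 3 spleens that stood apart (0.56, adjusted p = 0.0394) and over the 8 nodes alone (1.35, adjusted p = 3.4e-06), and gave 0.13 (adjusted p = 0.592) over the 12 alone. Between tumour cells, bone marrow and spleen no difference passed, with 95% intervals of -0.53 to 0.32 for tumour cells over bone marrow and -0.28 to 0.57 for tumour cells over spleen.

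Lrp1, the receptor for surface calreticulin, passed the test in 1 of 6 organ comparisons. It lies on chromosome 10 from 127538161 to 127621148, minus strand (ENSMUSG00000040249). In tumour cells its lowest, median and highest levels were 0, 24.5 and 40.2 CPM. They were 11.5, 31.9 and 57.4 CPM in bone marrow, 23.8, 39.7 and 57.0 CPM in spleen and 0, 27.8 and 49.7 CPM in lymph node. The ranges of all groups overlap. Tumour cells over spleen gave -0.68 (SE 0.31, adjusted p = 0.0452 by edgeR), and this call was lost in 14 of 20 fits that left out 1 library, with an adjusted p of up to 0.111. Without the shallowest tumour library it was -0.65 (adjusted p = 0.0574). Spleen over lymph node gave 0.56 (SE 0.28, adjusted p = 0.0907), and bone marrow over lymph node 0.35, with a 95% interval of -0.18 to 0.87. Over the 8 nodes of lower leukocyte sum alone both passed, at 1.27 (adjusted p = 0.00293) for spleen and 1.09 (adjusted p = 0.00652) for bone marrow, and over the 12 alone neither did (0.32 and 0.09, adjusted p = 0.35 and 0.763).

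Per kb of exon, the order of the members was led by Calr in every organ. In tumour cells the mean levels were 154 ± 46.6 CPM per kb for Calr, 7.43 ± 3.34 for Sirpa, 2.38 ± 1.83 for Thbs1, 1.28 ± 0.71 for Lrp1 and 1.1 ± 0.82 for Cd47 (SD, n = 12). In bone marrow they were 166 ± 40.7 CPM per kb for Calr, 23.4 ± 4.94 for Sirpa, 10.8 ± 2.97 for Cd47, 9.53 ± 4.54 for Thbs1 and 1.89 ± 0.78 for Lrp1 (n = 8). In spleen the means were 140 ± 38.8 CPM per kb for Calr, 15.8 ± 7.82 for Sirpa, 10.4 ± 7.25 for Cd47, 2.85 ± 3.22 for Thbs1 and 2.2 ± 0.63 for Lrp1 (n = 8). In lymph node they were 101 ± 38.5 CPM per kb for Calr, 7.52 ± 3.58 for Sirpa, 4.63 ± 2.87 for Cd47, 2.38 ± 2.79 for Thbs1 and 1.46 ± 0.76 for Lrp1 (n = 20). Cd47 had the lowest of these 5 means in tumour cells, within 1 SD of Lrp1, and came after Calr and Sirpa in each of the other organs. In bone marrow the means of Cd47 and Thbs1, its neighbour in the order, lie within 1 SD of each other.

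**Figure D5:**
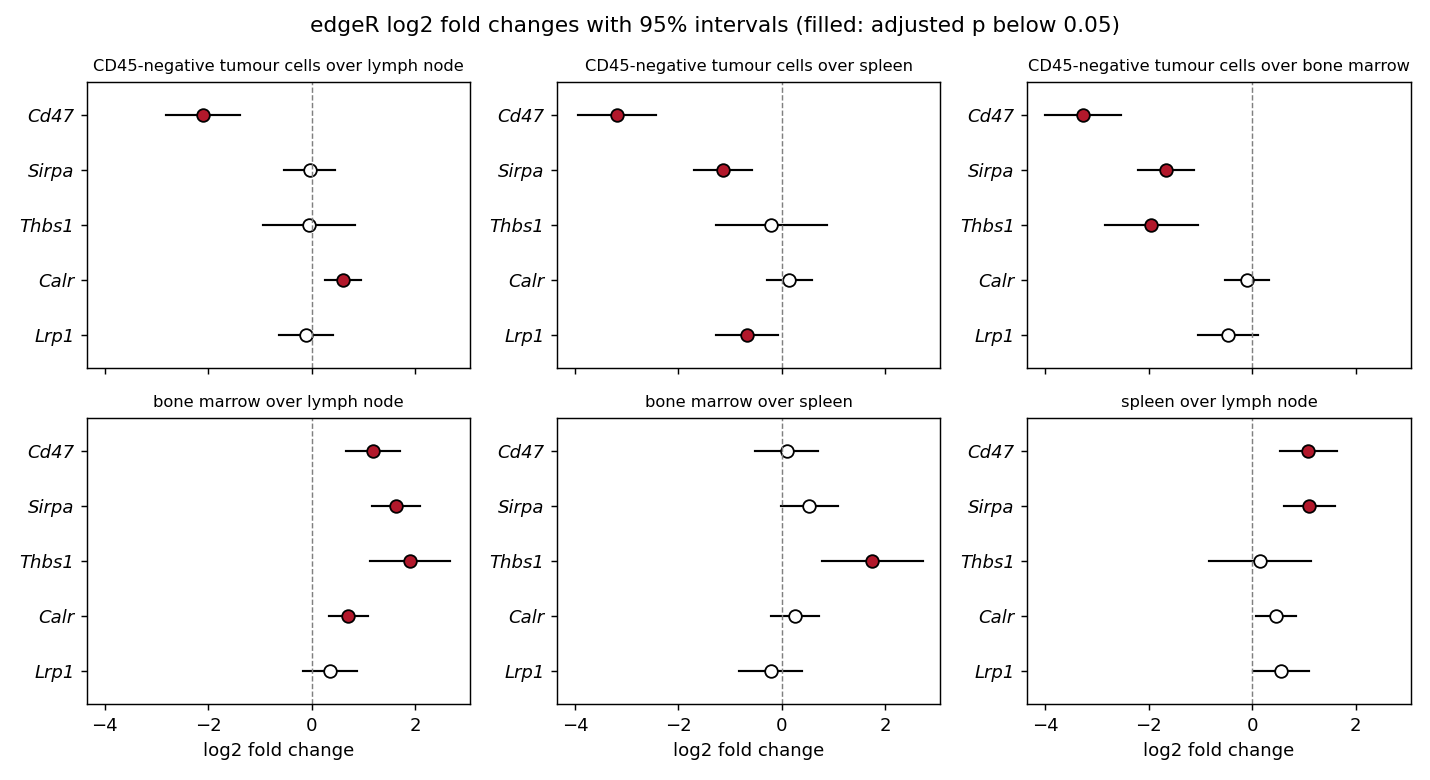
Log2 fold changes (horizontal axes) of the 5 tested members in each of 6 organ comparisons, with 95% intervals as lines and filled points where the adjusted p was below 0.05. Cd47 is below 0 in all 3 comparisons of tumour cells, from -2.10 to -3.27, and Lrp1 passed in 1 of 6.

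The members' counts are read against the share of all genes called. In tumour cells over lymph node 73.3% of 5504 tested genes were called at an adjusted p below 0.05, and of the 5 tested members Calr rose and Cd47 fell. Against spleen 67.5% of genes were called, and Cd47, Sirpa and Lrp1 fell in tumour cells. Against bone marrow 68.1% were called, and Cd47, Sirpa and Thbs1 fell in tumour cells. In bone marrow over lymph node 64.8% were called, and Cd47, Sirpa, Thbs1 and Calr rose. In bone marrow over spleen 39.5% were called, and Thbs1 alone rose among the members. In spleen over lymph node 42.8% were called, and Cd47 and Sirpa rose. Over the 12 nodes of higher leukocyte sum alone, 3985 genes were called in tumour cells, 3220 in bone marrow and 1865 in spleen. Over the 8 of lower sum alone they were 4028, 3872 and 3217. The number of genes tested in those fits is not given here. The members' median log2 fold change was -0.06 in tumour cells over lymph node (all genes -0.12), -1.67 over bone marrow (all genes -0.10) and -0.68 over spleen (all genes -0.18). It was 1.18 in bone marrow over lymph node, where the median of all genes was -0.05. Without lymph node libraries 17 and 18, tumour cells over lymph node gave -1.98 for Cd47 (adjusted p = 1.14e-05) and 0.70 for Calr (adjusted p = 0.00066). Bone marrow over lymph node then gave 1.35 for Cd47, 1.75 for Sirpa, 1.99 for Thbs1 and 0.86 for Calr, with adjusted p-values of at most 0.000226. Without the 3 spleens that stood apart, tumour cells over spleen gave -2.76 for Cd47 (adjusted p = 9.29e-09), -1.43 for Sirpa (adjusted p = 1.03e-05) and -0.74 for Lrp1 (adjusted p = 0.0515), and bone marrow over spleen gave 2.15 for Thbs1 (adjusted p = 0.00102). The split of calls depended on the scaling. In bone marrow over lymph node 1617 genes rose and 1948 fell. There the scaling on genes without opposite-strand exons gave 1034 and 2587, and library totals gave 2030 and 1602. In spleen over lymph node 1140 rose and 1214 fell, against 636 and 1713 with the scaling on genes without opposite-strand exons and 1056 and 721 when those 2 groups were fitted alone.

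Genes for the proteins that carry the signal of SIRP alpha inside the cell were mostly lower in tumour cells than in the organs. Of 10 genes on the list, 9 were tested. The sort took out CD45-positive cells, so falls of leukocyte genes in tumour cells were set by the design. Fyb, Ptk2b and Fgr had 3, 1 and 0 counts in the tumour libraries. These genes passed the filter only through the organs and are counted among those that fell. In tumour cells over bone marrow 8 fell and none rose (median -1.42), and over lymph node 7 fell and 1 rose (median -1.07), beside 68.1% and 73.3% of all genes called in either direction. Against the 12 nodes of higher leukocyte sum alone 7 of 9 fell and none rose, and against the 8 of lower sum alone 4 of 8 tested fell and 2 rose, Ptpn11 among those (2.03, adjusted p = 2.08e-05). Ptpn6, which encodes the phosphatase SHP-1 that SIRP alpha recruits, fell by 3.13 in tumour cells against lymph node (SE 0.29, adjusted p = 1.88e-14), with 0 to 31.3 CPM against 37.7 to 202 CPM. Fgr, a kinase of the Src family in myeloid cells, had 0 counts in the 12 tumour libraries, 270 in bone marrow, 60 in spleen and 52 in lymph node. It was at least 85.8-fold lower in tumour cells than in bone marrow, taking 3 counts over the group as the floor. Ptpn11, which encodes the related phosphatase SHP-2, gave 0.57 in tumour cells over lymph node (SE 0.28, adjusted p = 0.0648). In bone marrow over lymph node 5 of the 9 rose and none fell (median 0.67), against 64.8% of all genes called. They were Fgr (2.90, SE 0.29, adjusted p = 6.88e-12), the adaptor gene Skap2 (2.10, SE 0.28, adjusted p = 4.4e-09), Ptpn6, Grb2 and Ptpn11. In spleen over lymph node 4 of the 9 rose and none fell, close to the 42.8% of all genes called there. Over the 12 nodes alone 2 of 9 rose in bone marrow and 1 of 9 in spleen, and over the 8 alone 8 of 8 rose in each. Ptpn6 and Fyb have exons that share bases with the opposite strand.

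Several partners of calreticulin in the endoplasmic reticulum were higher in tumour cells than in lymph node. Of the 12 genes listed with Calr and Lrp1, 7 were tested, and in tumour cells over lymph node 5 rose and 2 fell (median 1.02, all genes -0.12), beside 73.3% of all genes called in either direction. Against the 12 nodes of higher leukocyte sum alone 5 of 7 rose and 2 fell (median 0.65), and against the 8 of lower sum alone 5 of 6 rose and 1 fell (median 2.03). Canx, the membrane-bound relative of calreticulin, rose by 1.74 (SE 0.16, adjusted p = 1.39e-14), with a median of 474 CPM in tumour cells against 131 CPM in lymph node. Hsp90b1 (1.23, SE 0.18, adjusted p = 1.21e-08), Hspa5 (1.02) and Pdia3 (0.89), all chaperones or folding enzymes of the same compartment, rose as well. Tapbp, which encodes the tapasin of the peptide-loading complex, fell (-0.96, SE 0.15, adjusted p = 5.16e-08), as did Lrp10. Over bone marrow 4 of the 7 rose and 2 fell, beside 68.1% of all genes called. Over spleen 3 rose, 2 fell and 2 were not called, Hspa5 (0.38, adjusted p = 0.198) and Pdia3 (0.28, adjusted p = 0.287). There 67.5% of all genes were called. In bone marrow over lymph node 3 rose and none fell, against 64.8% of all genes called. Of the 7 tested genes, Pdia3, Hsp90b1, Tapbp and Lrp10 have opposite-strand exons.

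CD47's other partners were mostly too low to test, at 4 of 12. Itgav and Itgb1, integrin subunits, rose in tumour cells over lymph node, by 2.55 (SE 0.32, adjusted p = 2.72e-10) and 1.23 (SE 0.19, adjusted p = 6.9e-08), and also rose over bone marrow. Cd36, a thrombospondin receptor, had 1 count in the tumour libraries and 3 in bone marrow, against 87 in spleen and 181 in lymph node. Among other don't-eat-me signals 3 of 6 were tested. Cd24a had 0 counts in tumour cells, 713 in bone marrow, 453 in spleen and 150 in lymph node, so that it was at least 31.9-fold lower in tumour cells than in lymph node. It passed the filter only through the organs, and the sort took out CD45-positive cells. B2m, the light chain of MHC class I, was lower in tumour cells than in lymph node (-1.30, SE 0.24, adjusted p = 2.9e-06), with -0.29 (adjusted p = 0.323) against the 8 nodes of lower leukocyte sum alone. Pirb, an inhibitory receptor for MHC class I, rose in bone marrow over lymph node (3.20, SE 0.28, adjusted p = 1.2e-14).

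Of the 17 genes for engulfment receptors and machinery, 8 were tested. In tumour cells over lymph node 6 fell and 2 rose, beside 73.3% of all genes called in either direction. The median of the 8 was -2.22, the same with genes at 0 set to their bounds. Rac2, Dock2 and Timd4 had no count in tumour cells, against 386, 443 and 283 counts in lymph node. They passed the filter only through the organs and are among the 6 that fell. The sort took out CD45-positive cells, so falls of leukocyte genes here were set by the design. Dock1 rose (1.97, SE 0.30, adjusted p = 5.61e-08) and Stab1 rose (0.54, SE 0.22, adjusted p = 0.0233), the second with 0.49 (adjusted p = 0.0723) over the 12 nodes of higher leukocyte sum alone. Over those 12 nodes 7 of 9 tested fell and 1 rose, and over the 8 of lower sum 4 of 6 fell and 2 rose. In bone marrow over lymph node 2 of the 8 rose and 3 fell, beside 64.8% of all genes called. Over the 12 nodes 3 of 9 rose and 3 fell, and over the 8 nodes 4 of 6 rose and 1 fell. Mfge8, a bridge between dying cells and phagocytes, had 5 counts in bone marrow against 443 in lymph node. Of 8 genes for proteins known to carry an amino-terminal pyroglutamate only Fn1, fibronectin, was tested, and it rose in tumour cells over lymph node (2.15, SE 0.31, adjusted p = 1.33e-08) and in bone marrow over lymph node (1.82, SE 0.33, adjusted p = 4.35e-06). The leukocyte markers given above differ between the same groups, and their part in these lists was not tested.

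The genes with the most similar profile were sought among 4180 other protein-coding genes by Pearson's r of the log2 level over 48 libraries, which share organ and depth. For Cd47 they were Cd24a, Ucp2 and Serinc3, each at 0.88, which became 0.57, 0.57 and 0.62 once the organ means were subtracted. The mean of all lymph nodes and that of all spleens were used. Differences between the sets of nodes split by leukocyte sum, and of the spleens that stood apart, therefore remain in the values within organs. For Sirpa they were Arpc4 (0.84), Pxn (0.80) and Actb (0.80), at 0.75, 0.71 and 0.64 within organs. For Thbs1 they were Ppp6r1 (0.75), Lbr (0.74) and Actn1 (0.73), all with opposite-strand exons. For Calr they were Ppia, Hnrnpk and Pdia3, each at 0.86 and at 0.83, 0.80 and 0.81 within organs. For Lrp1 they were Nfe2l2 (0.66), Clta (0.64) and Smarcb1 (0.64).

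The effect of QPCTL loss on these genes could be read only from a table of the authors that compares the genotypes in the CD45-negative tumour cells. The direction of its fold changes is not given. Of 11340 genes in the authors' deposited table, 0.644% had an adjusted p below 0.05, and none of the 5 members listed did. In the authors' deposited table Cd47 stood at a log2 fold change of -0.57 (adjusted p 0.682), Sirpa -0.40 (0.542), Thbs1 -0.94 (0.323), Calr 0.22 (0.541) and Lrp1 -0.48 (0.517). Their median was -0.48 in the authors' deposited table, where all genes had -0.14. Unadjusted, the smallest p of a member in the authors' deposited table was 0.062, for Thbs1. Qpct was not listed. In the authors' deposited table Gm29233, the partner of Thbs1, stood at -0.14 (adjusted p 0.851). In the authors' deposited table Qpctl stood at 0.69 (adjusted p 0.494), while Fbxo46, which shares 471 exonic bases with Qpctl on the opposite strand, stood at -1.92 (adjusted p 1.47e-05). In the authors' deposited table none of the 7 listed SIRPA signalling genes, the 10 of the calreticulin list, the 8 of the engulfment list or the 5 CD47 partners was called. The smallest adjusted p among those in the authors' deposited table was 0.139, for Itgav.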

How the data were processed

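RNA of 48 samples was sequenced as paired-end reads of 50 bp, per the labels' protocols. The submitters' processing notes name HISAT2 and edgeR, with GRCm38 and mm10 as builds. For the counter, its strand setting and the annotation, the sources used here give nothing. The deposited count table holds whole read counts per gene. The authors' deposited table of tumour cells holds, per the file headers, log2 fold changes and mean log2 CPM, an F statistic (a score) and p-values with adjusted p-values.

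Count columns name an organ and a number, so libraries were grouped by organ, 12, 8, 8 and 20. Tumour-bearing and baseline lymph nodes could not be compared with each other, nor tumour cells with tumour-bearing nodes alone. Comparisons of tumour cells with the 20 nodes, spleen and bone marrow took their place. Titles number the animals but do not say more of their origin, and p-values measure only the spread between these libraries.

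Genes passing edgeR's filter (10 counts, total 15) were fitted in edgeR 4.0.16 (R 4.3.3) with TMM scaling in 1 quasi-likelihood model of 48 libraries, 5504 genes, with Benjamini-Hochberg adjustment. Intervals are the estimate ± 1.96 SE at 95%. DESeq2 1.42.0, limma 3.58.1 (voom), other scalings, no filter and leaving out libraries were tried. Fits were tested on simulated data. Strand and exons came from GENCODE M21, in which 54906 of 55226 matched identifiers (99.42%) have the same start and end. Named genes are the members, Qpctl, genes sharing exons with them, the 3 most similar genes per member, and genes with the smallest p of each list. A few list members were named for their role or for counts at or near 0, after their values were seen. Levels and ratios were computed with scipy 1.17.1, pandas 2.3.3 and numpy 2.4.6 in Python 3.11.15. The members and the 8 gene and 13 marker lists were chosen with earlier results of these data known. Some list members are not reported here by name.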

Additional observations from a re-analysis of the deposited data

Results flagged for a closer look

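In the groups of 8 libraries, 12 sets of values were examined for a library far from the others, and 4 were marked, where chance marks about 1 in 20. Thbs1 stood at 61.5 CPM in spleen library 6, where the next highest spleen had 25.3 CPM. Gm29233 stood at 181 CPM in the same spleen library, where the next had 62.3 CPM. Calr stood at 744 CPM in bone marrow library 4, above the next at 528 CPM, and at 141 CPM in spleen library 8, below the next at 396 CPM. Spleen libraries 6 and 8 are among the 3 that stood apart from the other spleens. Without those 3, Thbs1 in bone marrow over spleen was 2.15 (adjusted p = 0.00102 by edgeR) and Calr in bone marrow over spleen was 0.19 (adjusted p = 0.614).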

How the results depend on the processing

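No paired analysis was possible because the running numbers of the count columns are not the mouse numbers of the titles. Without the filter on low counts the genes called were 9829 in tumour cells over lymph node, 7941 over spleen and 8265 over bone marrow, 8475 in bone marrow over lymph node, 4088 over spleen, and 3536 in spleen over lymph node, since more genes were then tested. For the Sirpa to Cd47 ratio, adding 5 counts gave 0.821 in tumour cells over spleen and 0.41 over bone marrow, which no longer passed. It gave 0.46 in bone marrow over lymph node, which then passed (exact permutation, adjusted p = 0.0199), and 0.049 in spleen over lymph node, a turned sign. Without the 3 spleens that stood apart, an alternative chosen after seeing the data, the ratio differed by 1.166 in tumour cells over spleen, by -0.265 in bone marrow over spleen and by 0.656 in spleen over lymph node, the last pair with turned signs and exact adjusted p-values of 0.198 and 0.121. The cause of these changes was not tested. Other scalings moved the median of all genes by -0.40 to 0.22 on the log2 scale. Leaving out the 8 or the 12 lymph nodes on either side of the gap in leukocyte sums was also chosen after seeing the data. Without the 12 of higher sum, tumour cells over lymph node turned its sign and passed for Sirpa (0.74) and Thbs1 (2.708). Without the 8 of lower sum, the ratio passed in bone marrow over lymph node (0.528, exact permutation, adjusted p = 0.0302). In spleen over lymph node the ratio then turned its sign (0.055). No other member's fold change turned its sign and passed the threshold under any setting. Of 477 values of single genes under other settings, 436 stayed on their side of the threshold with no call reversed. Lrp1 in tumour cells over spleen was also lost under 4 settings other than leaving out 1 library. Among the members the calls that changed were those named above for Cd47, Sirpa, Thbs1, Calr and Lrp1, and Lrp1 in tumour cells over bone marrow, which passed without bone marrow library 1 (-0.668, adjusted p = 0.048). Calr and Lrp1 in spleen over lymph node passed with DESeq2, limma-voom, those 2 groups alone and without lymph node libraries 17 and 18. Calr also passed there with DESeq2 size factors in edgeR. With 1 library left out, Calr in spleen over lymph node passed in 16 of 28 fits and Lrp1 in 2 of 28. Low counts limit Qpct, the Sirpb1 genes and Cd47 in tumour cells most. Whether depth, the strand counted or low transcript levels made these counts low was not tested.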
